A study of Mus musculus with 42 samples.

Results

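Testes of *Tug1* knockout mice and of wild-type mice were compared by sequencing of polyA RNA. The 7 testes samples, 4 wild-type and 3 knockout, were taken by their labels from the 42 samples of 7 tissues and cells analysed here. All mice were males of the strain Tug1_tm1.1Vlcg on a C57BL/6J background (N3-C57BL/6J, no Neo). Wild-type mice carried 2 normal *Tug1* alleles, and knockout mice (*Tug1*-/-) had both alleles of *Tug1* replaced by a *lacZ* reporter. The deletion is constitutive, so that the testes lacked *Tug1* in germ cells and somatic cells alike. The age of the mice is not given in the labels. The testes had been frozen and pulverized whole, and the libraries came from a kit that does not mark the strand of the RNA.

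The testis holds a dividing line of germ cells inside tubules. Spermatogonia divide and enter meiosis as spermatocytes, the spermatocytes give rise to round spermatids, and the round spermatids elongate, pack their DNA with transition proteins and then protamines, build a flagellum and shed their cytoplasm. Sertoli cells nurse the germ cells within the tubules, peritubular myoid cells surround them, and Leydig cells and macrophages lie between them. Spermatids make up much of the RNA of an adult testis, and their genes are often silent in other tissues. *Tug1* is a long noncoding RNA whose knockout males were the subject of the study.

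The deposited values were given as FPKM, a level scaled by transcript length and library size, with 1 value per genotype in which the authors had combined the replicates. The table held no value per mouse, so that no standard deviation can be set beside a value, no difference was tested, and the number of mice per genotype stands for neither error nor confidence. A difference between genotypes could therefore not be compared with the spread between mice at any gene below. Where a pair of levels is given, the wild-type value comes first and the knockout value after it. The change of a gene is log2((KO + 0.1)/(WT + 0.1)) throughout. For genes with low values this scale gives a smaller change than the plain ratio. Of 26653 genes in the table, 15136 were measured, meaning that the comparison had been completed by the authors and that the mean of both genotypes was at least 1 FPKM.

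The targeted gene followed the labels. *Tug1* (chr11:3639785-3649042, mm10) had 27.7 FPKM in wild-type testes against 0.402 FPKM in the knockout. The *lacZ* cassette was at 0.0063 FPKM in wild-type testes and at 54.3 FPKM in the knockout. Markers of the cells of the testis were present at high levels in both genotypes. *Prm1* (chr16:10796326-10796886), a protamine of elongating spermatids, was at 9265 FPKM in wild-type testes and 8230 FPKM without *Tug1*. *Tnp1*, a transition protein of the same cells, had 9432 and 8161 FPKM. *Acrv1*, of the acrosome of round spermatids, had 246 FPKM in wild-type against 226 FPKM in knockout testes. *Sycp3*, of the synaptonemal complex of spermatocytes, had 146 and 149 FPKM. *Insl3*, a peptide hormone of Leydig cells, had 756 FPKM in wild-type testes and 1131 FPKM in the knockout. Transcripts of all these stages were thus present without *Tug1*. Set against *Sycp3*, the knockout ratio over the wild-type ratio was 0.869 for *Prm1*, 0.846 for *Tnp1*, 0.895 for *Acrv1* and 1.46 for *Insl3*, values that no scaling between the genotypes can move.

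**Figure D1:**
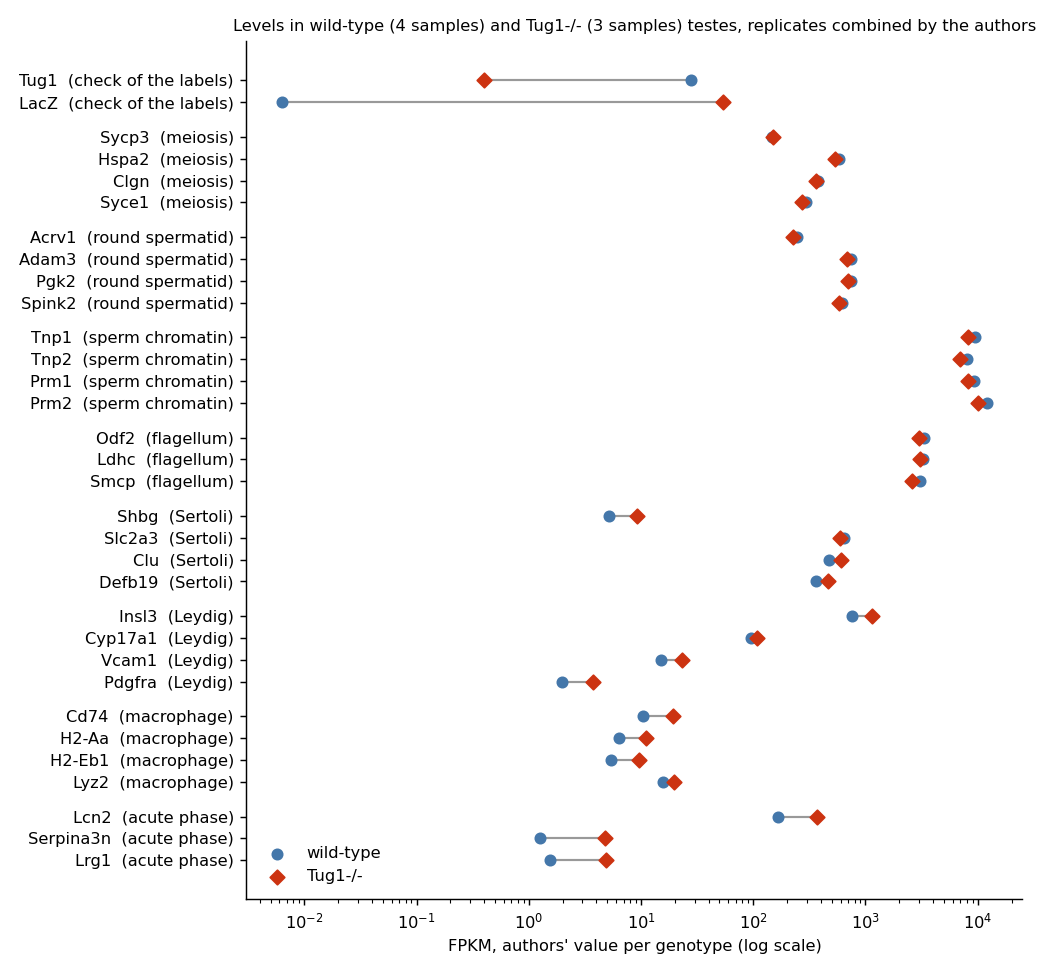
FPKM values (x axis, log scale) of a selection of the marker and list genes described in the text (y axis, with the list of each gene), as the authors' single value for wild-type (blue circles) and *Tug1*-/- testes (red diamonds). *Tug1* and *LacZ* lie far apart between the genotypes, the spermatid genes lie slightly lower in the knockout, and the plotted Sertoli, Leydig, macrophage and acute phase genes lie above their wild-type value, with *Slc2a3* as the exception among those plotted.

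Most genes lay close to their wild-type level. Across the 15136 measured genes, 173 were higher in *Tug1*-/- testes by more than 1.5 times (1.14%) and 113 were lower (0.747%), which is 1.89% in either direction. These counts include *lacZ* and *Tug1*. The median change of all measured genes was -0.06 on the log2 scale, with quartiles of -0.15 and 0.06, and list medians are given below relative to that median. When the changes were centred on it, 233 genes were higher and 89 lower, and when values were divided by the total FPKM of each genotype, 290 were higher and 79 lower. Of the higher genes 10.98% were testis-restricted by the rule given further below and 86.1% were protein-coding. Of the lower genes 31.0% were testis-restricted and 60.2% protein-coding, against 18.6% and 90.3% of all measured genes.

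The share of genes past the fold was lower in testes than in the other tissues, while the interquartile range was narrower than in 3 of them and wider than in the other 3. The share past 1.5 times in either direction was 2.23% in heart, 3.05% in prostate, 3.18% in mouse embryonic fibroblasts (MEFs), 3.48% in eyes, 4.72% in liver and 5.96% in spleen. Testes had the lowest share of the 7, at 1.89%. The interquartile range of the change was 0.211 in testes, against 0.177 in heart, 0.198 in prostate, 0.207 in eyes, 0.232 in spleen, 0.238 in liver and 0.244 in MEFs. At a mean of 100 FPKM or more the share past 1.5 times was 0.133% in testes. In the other tissues it ran from 1.51% in prostate to 7.25% in eyes, with 6.72% in spleen. In testes 1 gene was higher and 1 lower among 1508 at that level. At 1 to 5 FPKM the share was 4.32% in testes, above the 4.24% in heart and below those of the other tissues. The numbers of mice differ between these tissues, with 3 per genotype outside testes and 2 knockout mice in prostate, and how far the number of combined replicates moves the share was not tested.

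Germ cell genes were examined in the order in which the cells develop, in lists of known genes. The 24 lists together held 478 different measured genes. For each list the members past the fold and the median are given, and with 1 value per genotype these are descriptions without a test.

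Spermatogonial genes lay at or slightly above the level of other genes. Of 28 genes in the list 22 were measured, 1 was past the fold, and the median change was 0.10 above that of all measured genes. *Ddx4*, an RNA helicase of the germ line, was at 259 FPKM in wild-type testes and 252 FPKM without *Tug1*, *Dazl*, an RNA-binding protein of germ cells, had 55.9 and 59.1 FPKM, and *Uchl1*, a ubiquitin hydrolase, had 40.9 FPKM in both. The member past the fold was *Ccnd2*, a D-type cyclin, with 0.964 FPKM in wild-type testes and 3.27 FPKM in the knockout. *Stra8*, the switch into meiosis, had 8.74 and 10.2 FPKM and was named after its value had been seen.

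Genes of meiotic prophase differed little. None of 42 measured members of 45 was past the fold, and their median change was 0.03 above that of all measured genes, with changes between -0.25 and 0.32. *Hspa2*, a chaperone of spermatocytes, had 578 FPKM in wild-type against 532 FPKM in knockout testes, *Clgn*, a chaperone of the endoplasmic reticulum, had 375 and 359 FPKM, and *Syce1*, of the synaptonemal complex, had 296 and 271 FPKM. The 16 measured genes of the piRNA pathway, which silences transposons in germ cells, lay 0.01 below all genes at the median, with none past the fold and changes between -0.16 and 0.02. Its most abundant members were *Mael* with 862 and 800 FPKM, *Gtsf1* with 487 and 454 FPKM, and *Ddx25* with 348 and 317 FPKM.

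Genes of round and elongating spermatids lay slightly lower, nearly all of them in the same narrow range. In the lists of round spermatids and the acrosome, sperm chromatin, and the flagellum together, 112 of 118 measured genes lay below the median change of all genes and 6 above it. None of the 118 was past 1.5 times. The quartiles of their changes were -0.19 and -0.11, against -0.15 and 0.06 for all measured genes. Most of them are abundant, and abundant genes as a whole had much the same values. At 100 FPKM and over the 78 spermatid genes had a median change of -0.14, with quartiles of -0.18 and -0.12, and all 1508 measured genes had a median of -0.13, with quartiles of -0.17 and -0.08 and 0.133% past the fold. At 20 to 100 FPKM the 33 spermatid genes had a median of -0.14 and all 3891 genes had -0.09. In whole testes, fewer spermatids and less RNA per spermatid cannot be told apart, here or for any list below.

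Round spermatid and acrosome genes had a median 0.07 below that of all genes, over 39 measured of 41. *Adam3*, a sperm surface protein needed for migration in the oviduct, had 746 FPKM in wild-type testes and 690.5 FPKM in the knockout. *Pgk2*, the phosphoglycerate kinase of germ cells, had 737 and 701 FPKM. *Spink2*, a protease inhibitor of the acrosome, had 617 and 579 FPKM. The changes of the list lay between -0.35 and 0.13. *Tmem95*, a sperm membrane protein named after its value had been seen, was at the lower end with 19.7 and 15.4 FPKM.

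Genes of sperm chromatin lay lowest of the germ cell lists, 0.13 below all genes at the median, with 15 of 16 measured members under the all-gene median. *Prm2*, the second protamine, was at 12141 FPKM in wild-type testes and 9957 FPKM without *Tug1*, a change of -0.29 against -0.17 for *Prm1*. *Tnp2*, the second transition protein, had 8085 and 6995 FPKM. *Prm1*, *Prm2*, *Tnp1* and *Tnp2* together held 5.34% of the total FPKM in wild-type and 4.90% in knockout testes. The ratio of *Prm1* to *Prm2* was 0.763 in wild-type and 0.827 in knockout testes.

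Genes of the flagellum and of motility had a median 0.08 below that of all genes over 63 measured of 65, and changes between -0.31 and 0.01. *Odf2*, of the outer dense fibers, had 3331 FPKM in wild-type against 3028 FPKM in knockout testes. *Ldhc*, the lactate dehydrogenase of sperm, had 3259 and 3041 FPKM. *Smcp*, of the mitochondrial capsule, had 3043 and 2586 FPKM. The calcium channel of the sperm tail, the tektins and the axonemal dyneins were all in this list, and no member was past the fold.

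Genes for removal of cytoplasm and release of sperm were spread to both sides of other genes. None of 25 measured members of 28 was past the fold, and the median lay 0.03 above that of all genes. *Spem1*, needed for shedding of the cytoplasm, had 617 FPKM in wild-type testes and 520 FPKM in the knockout, while *Ube2j1*, a ubiquitin-conjugating enzyme, had 481 and 448 FPKM and *Pvrl3*, an adhesion protein of spermatids, had 309 and 291 FPKM. Among members named after their values had been seen, *Mfge8*, which bridges dying cells to phagocytes, had 33.6 and 48.8 FPKM, and *Itga6*, an integrin chain, had 16.5 and 23.6 FPKM.

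Many spermatid genes answer to *Crem*, an activator that binds the cyclic AMP response element. The promoters of the list genes were searched for this element after the narrow range of the spermatid changes had been seen. Any link between the element and these changes was not tested. The windows were those of RefSeq (GRCm38.p6), from 250 bases before to 50 after each gene start, and the letters searched were TGACGTCA, which read the same on both strands. The element was found in 588 of 32851 windows of all genes (1.79%). By symbol, windows were found for 34 of 39 measured genes of the round spermatid list, 15 of 16 of the sperm chromatin list and 53 of 63 of the flagellum list. The element was in 1 of 40 windows of the first list, 0 of 20 of the second and 1 of 75 of the third. The matches, in *Izumo1*, the sperm protein for fusion with the egg (chr7:45621704-45621733, plus strand), and *Spag6l*, of the central pair of the axoneme (chr16:16829354-16829383, minus strand), are shown with the element in capitals. *Izumo1* had 77.6 and 67.6 FPKM and *Spag6l*, which the table lists as *Spag6*, had 191 and 173 FPKM. Every list was searched for these exact letters, and variants of them were not searched. The element was also in 2 of 24 windows of the cytoplasm removal list and 2 of 13 of the immediate early list. The acute phase, macrophage and p53 lists had it in 1 window each, and the remaining lists had none. A match is a description and not a site shown to be bound.
*Izumo1*: ctgccaccctaTGACGTCAcgatgggatgg
*Spag6l*: cactctggccgTGACGTCAcgacctttgct

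**Figure D2:**
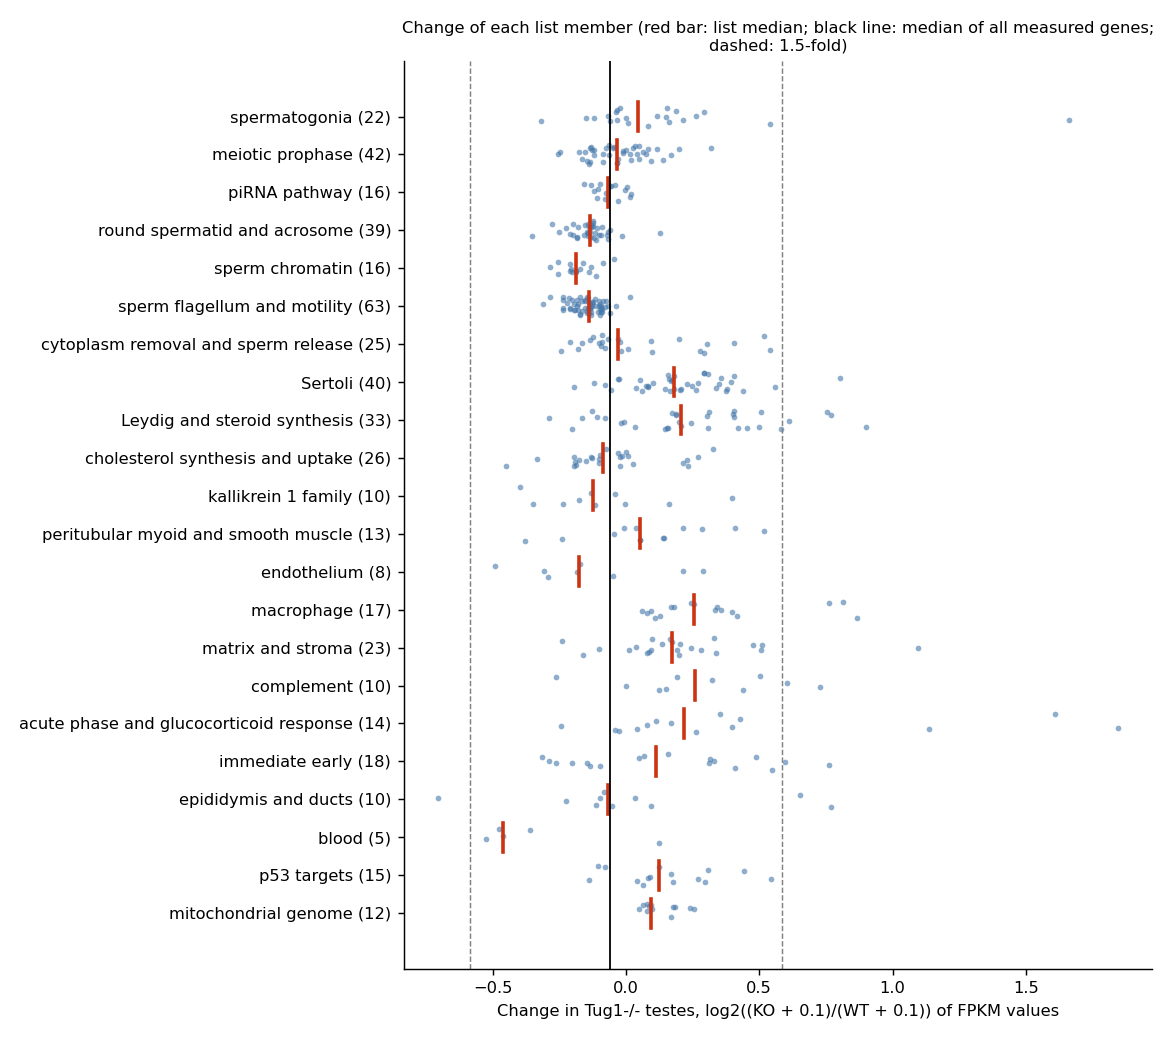
Change of each measured list member in *Tug1*-/- testes (x axis, log2 scale), with 1 row for each list of at least 5 measured genes (y axis, number of genes in parentheses). The spermatid lists lie as narrow bands left of the all-gene median of -0.06, and the Sertoli, Leydig, macrophage, complement and acute phase lists are wider and lie to its right.

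Genes of Sertoli cells, Leydig cells and macrophages lay above other genes. In the Sertoli, Leydig and macrophage lists together, 81 of 90 measured genes lay above the median change of all genes, and 8 were higher by more than 1.5 times (1.14% of all measured genes were) and none lower. The median change was 0.20, with quartiles of 0.08 and 0.38. The share of all measured genes that were higher depended on level. It was 122 of 4838 genes at 1 to 5 FPKM, 38 of 4899 at 5 to 20 and 12 of 3891 at 20 to 100. The median changes of these classes were 0.01, -0.03 and -0.09. Members past the fold here and in the lists below lie in part in the lowest class, and these lists were not split by level.

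Sertoli genes had a median 0.24 above that of all genes over 40 measured of 44, and 37 lay above the all-gene median. *Shbg*, the androgen-binding protein, was past the fold, with 5.22 FPKM in wild-type testes and 9.20 FPKM in the knockout. *Clu*, clusterin, had 475 and 601 FPKM, and *Defb19*, a defensin of the tubule, had 359 and 465 FPKM. *Slc2a3*, a glucose transporter that germ cells also express, was lower, with 647 and 596 FPKM. *Wt1* and *Sox9*, factors that define Sertoli cells, had 20.3 and 24.2 FPKM and 3.71 and 4.91 FPKM, and were named after their values had been seen.

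Leydig and steroid synthesis genes had a median 0.27 above that of all genes over 33 measured of 39, with 4 past the fold, all higher, where 1.14% of all measured genes were higher. *Insl3* at 756 and 1131 FPKM had a change of 0.58, just under the fold on this scale. *Vcam1*, an adhesion protein, was at 15.0 FPKM in wild-type testes and 23.0 FPKM without *Tug1*. *Pdgfra*, a growth factor receptor of the Leydig lineage, had 1.96 and 3.75 FPKM. In the 6 other tissues *Vcam1* had changes between 0.21 (eyes) and 1.02 (liver), and *Pdgfra* between -0.31 (MEFs) and 0.24 (prostate). *Cyp21a1*, a steroid hydroxylase, had 1.66 and 2.91 FPKM. *Lepr*, the leptin receptor, had 0.795 and 1.41 FPKM, a wild-type value under the level asked of the mean.

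Other genes of the list were on both sides of their wild-type level. *Cyp17a1*, the lyase of androgen synthesis, had 95.1 FPKM in wild-type against 108 FPKM in knockout testes, and *Aldh1a1*, a retinal dehydrogenase, had 95.2 and 126 FPKM. Of genes named after their values had been seen, *Star*, which carries cholesterol into mitochondria, had 20.8 and 27.6 FPKM, *Cyp11a1*, the side-chain cleavage enzyme, had 53.2 and 65.9 FPKM, and *Hsd3b6* had 50.8 and 46.5 FPKM. The ratio of *Insl3* to *Star* was 36.3 in wild-type and 41.0 in knockout testes, and that to *Cyp17a1* was 7.95 and 10.4. Cholesterol synthesis genes, which germ cells also use, lay 0.03 below all genes at the median, with none of 26 past the fold. *Lipe*, a hormone-sensitive lipase, had 203 and 178 FPKM, *Fdft1*, squalene synthase, had 171 and 156 FPKM, and *Fdps*, farnesyl diphosphate synthase, had 79.6 and 72.7 FPKM. The kallikrein 1 family, a group of near-identical proteases whose reads can be split between copies, had 10 measured members of 14 and a median 0.06 below that of all genes, with none past the fold. *Klk1b8* led it with 69.5 and 63.5 FPKM.

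The binding letters of NR5A1, the nuclear receptor behind steroid synthesis genes, were searched on both strands as CAAGGTCA, which shares the letters GTCA with the cyclic AMP element. They were found in 512 of the 32851 windows (1.56%) and in 1 of 29 windows of the Leydig list, which matched 23 of its 33 measured genes. The window is that of *Bhmt*, a methyltransferase of betaine metabolism (chr13:93637814-93637843, minus strand). Among the other lists the largest share was in the kallikrein 1 family, with 2 of 10 windows. *Bhmt* had 26.0 FPKM in wild-type testes and 34.5 FPKM in the knockout and is shown as the 1 member of the list with the letters, in capitals.
*Bhmt*: tgaccccagatCAAGGTCAgaggcctgcta

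Macrophage genes had a median 0.32 above that of all genes, and 17 of 17 measured members of 24 lay above it. *Cd74*, the invariant chain of MHC class II, was at 10.5 FPKM in wild-type testes and 19.2 FPKM without *Tug1*. *H2-Eb1* and *H2-Aa*, chains of MHC class II, had 5.43 and 9.63 FPKM and 6.43 and 10.98 FPKM. These 3 were past the fold, where 1.14% of all measured genes were higher. *Lyz2*, lysozyme, had 15.7 and 19.8 FPKM, and *C1qb*, a complement subunit made by macrophages, had 11.02 and 11.9 FPKM.

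Complement genes lay 0.32 above all genes at the median over 10 measured of 16. *C1s*, a serine protease of the classical pathway, had 2.20 FPKM in wild-type against 3.71 FPKM in knockout testes, and *Serping1*, the inhibitor of that protease, had 14.4 and 21.9 FPKM. Both were past the fold, where 1.14% of all measured genes were higher. *C7*, of the membrane attack complex, had 24.4 and 33.1 FPKM. *C2* had 7.87 and 8.74 FPKM.

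Acute phase and glucocorticoid response genes had a median 0.28 above that of all genes over 14 measured of 22, with 3 higher by more than the fold, against 1.14% of all measured genes. *Lcn2*, lipocalin 2, which binds iron-carrying siderophores, had 168 FPKM in wild-type testes and 368 FPKM in the knockout, the largest difference in FPKM of the list. *Serpina3n*, a serine protease inhibitor, had 1.27 and 4.82 FPKM, and *Lrg1*, a secreted glycoprotein, had 1.53 and 4.88 FPKM. *Mt1* and *Mt2*, metallothioneins that glucocorticoids also induce, had 588 and 571 FPKM and 203 and 220 FPKM. The list was thus not uniform.

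Matrix and stroma genes had a median 0.23 above that of all genes over 23 measured of 27. *Igfbp3*, which binds insulin-like growth factors, was at 1.29 FPKM in wild-type testes and 2.86 FPKM without *Tug1* and was past the fold. *Sparc*, a matrix protein, had 143 and 199 FPKM, *Dcn*, decorin, had 21.8 and 25.8 FPKM, and *Col15a1* had 14.9 and 12.6 FPKM. Peritubular myoid and smooth muscle genes lay 0.11 above all genes over 13 measured of 15, with none past the fold. *Actg2*, a smooth muscle actin, had 310 FPKM in wild-type against 239 FPKM in knockout testes, *Myl9* had 39.8 and 52.8 FPKM, and *Acta2* had 22.2 and 25.7 FPKM.

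Endothelial and blood genes lay below other genes at the median. The 8 measured endothelial genes of 16 lay 0.12 below all genes at the median, with *Egfl7*, a secreted factor of vessels, at 9.75 and 6.91 FPKM, *Vwf* at 4.43 and 3.89 FPKM, and *Sox17* at 3.48 and 3.08 FPKM. The 5 measured blood genes of 13 lay 0.40 below. The hemoglobin gene *Hbb-bs* had 10.5 and 7.48 FPKM, *Hba-a1* had 3.70 and 2.66 FPKM, and *Alas2*, the heme enzyme of red cells, which is listed among them, had 12.2 and 13.3 FPKM. Hemoglobin copies share reads, and none of the 5 was past the fold. Of the 8 endothelial genes 3 lay above the all-gene median, and of the 5 blood genes 1 did. Without the filter on the mean the endothelial list was at -0.04 relative to all genes.

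Immediate early genes, which respond to handling of tissue and to signals, lay 0.17 above all genes at the median over 18 measured of 23, with changes between -0.31 and 0.76. *Ier3* had 0.916 and 1.62 FPKM and *Klf6* had 2.33 and 3.57 FPKM, and both were past the fold, where 1.14% of all measured genes were higher. Both had means below 5 FPKM. Of the 18 measured genes 11 lay above the all-gene median and 7 below it. *Klf4* had 79.1 and 71.4 FPKM, *Nr4a1* had 22.6 and 18.5 FPKM, and *Jund* had 14.1 and 14.6 FPKM. Targets of p53, which include genes of cell death, lay 0.18 above all genes over 15 measured of 18, with none past the fold. *Mdm2*, the ligase of p53, had 104 and 98.4 FPKM, and *Sesn1* and *Sesn2*, stress proteins, had 11.01 and 11.2 FPKM in wild-type testes, with changes of 0.12 and 0.06. All 12 measured mitochondrial genes were above the all-gene median, by 0.16 at the median, with *mt-Atp8* at 3842 and 4102 FPKM, *mt-Co1* at 3497 and 3927 FPKM and *mt-Co2* at 3461 and 3659 FPKM.

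Markers of tissue next to the testis were mostly near 0. Of 34 genes of the epididymis and ducts 10 were measured, and the others had means of at most 0.484 FPKM. The measured genes included *Cst8* with 355 FPKM in wild-type testes and 335 FPKM in the knockout, *Aqp9* with 65.8 and 56.3 FPKM, and *Epcam* with 15.7 and 14.7 FPKM. *Aqp2*, a water channel, had 2.02 and 3.51 FPKM and *Hoxd10* had 0.871 and 1.43 FPKM, and *Rnase10*, of the epididymis, had 2.71 and 1.62 FPKM, all 3 past the fold. Of all measured genes 1.14% were higher and 0.747% lower. At 1 to 5 FPKM, where all 3 means lie, 4.32% of genes were past the fold in either direction. The defining genes *Crisp1*, *Gpx5* and *Lcn8* had at most 0.187 FPKM, 0.022 FPKM and 0 FPKM. Of the 12 genes of the accessory glands, *Svs5* was measured, with 3.96 and 4.83 FPKM. Of 15 genes of fat and skeletal muscle 4 were measured, with *Adipoq* at 5.77 and 5.55 FPKM, *Actn3* at 4.37 and 4.48 FPKM and *Mylpf* at 2.21 and 1.83 FPKM, and none was past the fold.

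Genes were then chosen without reference to known lists. A gene was called testis-restricted where its mean over both genotypes in testes was at least 10 times that in each of the 6 other tissues and cells, a choice that does not use the difference between genotypes. The 2815 such genes had a median change of -0.13, with 0.675% higher and 1.24% lower, and the 12321 other genes had a median of -0.04, with 1.25% higher and 0.633% lower. With a margin of 3 times there were 4112 genes, again with a median of -0.13.

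The lower level of testis-restricted genes was seen at every level of expression. On autosomes their median change was -0.14 at means of 1 to 5 FPKM, -0.12 at 5 to 20, -0.13 at 20 to 100 and -0.14 at 100 FPKM and over, the last over 695 genes. The other autosomal genes had medians of 0.02, -0.02, -0.08 and -0.11 in the same classes. The gap between the groups was thus narrower at high levels, while the medians of the restricted genes were alike across classes. The spread over genes narrowed with level, and the interquartile range of all measured genes was 0.32 at 1 to 5 FPKM and 0.09 at 100 FPKM and over.

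**Figure D3:**
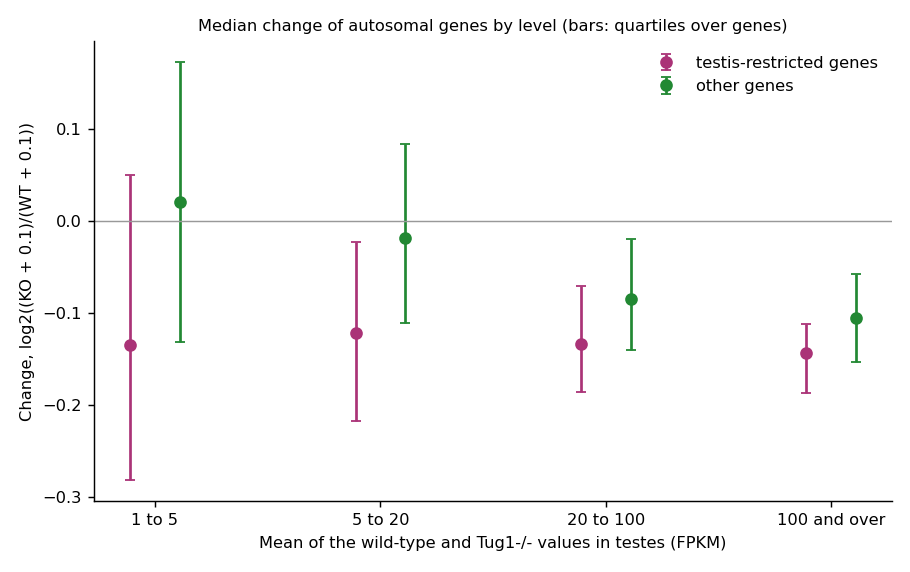
Median change of autosomal genes in *Tug1*-/- testes (y axis, log2 scale) by the mean of both genotypes in FPKM (x axis), for testis-restricted genes (purple) and other genes (green), with bars for the quartiles over genes. The purple medians lie between -0.12 and -0.14 in all classes, and the green medians go from 0.02 to -0.11.

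Chromosome X stood apart from the autosomes. Its 556 measured genes had a median change of 0.10, and 85.6% of them lay above the median of all genes, against autosomal medians between -0.08 and -0.05. On chromosome X 7 genes were higher by more than 1.5 times (1.26%, near the 1.14% of all measured genes) and 0 lower. The X chromosome is silenced during meiosis and partly reactivated in spermatids, so that its genes differ between stages of the germ line. The 199 testis-restricted genes of chromosome X had a median of 0.03, against -0.14 on autosomes, and the 357 other X genes had 0.15, against -0.05. The difference was present at each level, with X medians of 0.14, 0.08, 0.06 and 0.02 against autosomal medians of 0.01, -0.03, -0.09 and -0.13 from the lowest class to the highest. The 42 measured genes of chromosome Y had a median of -0.03.

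**Figure D4:**
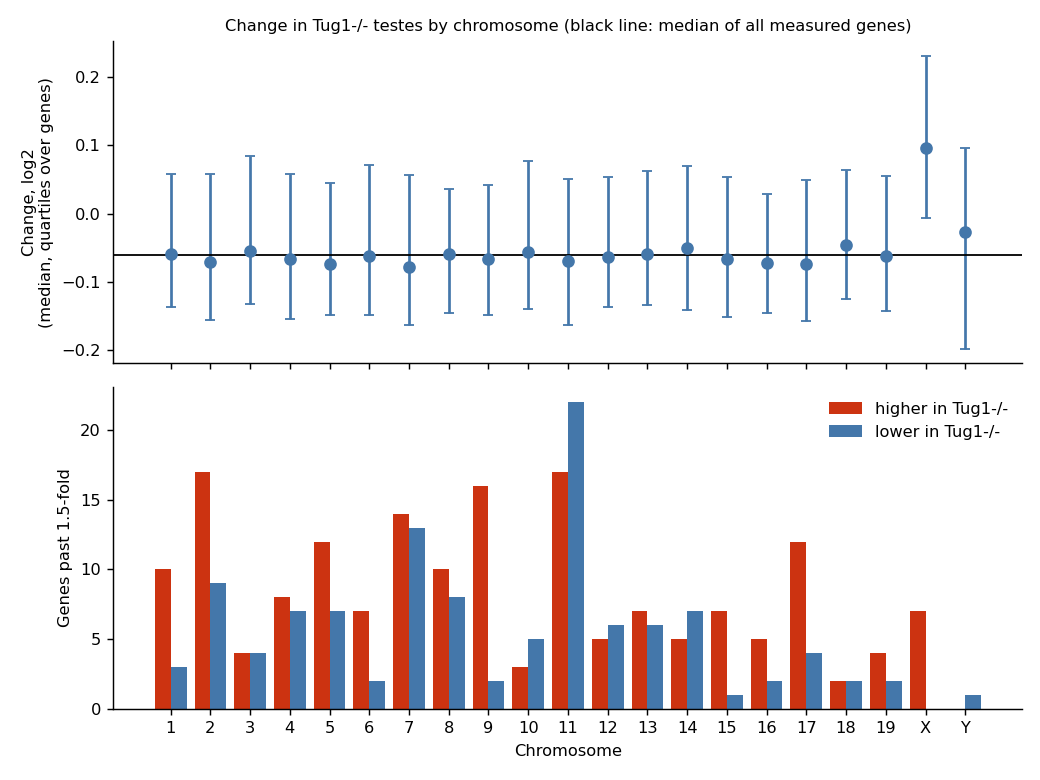
Top, median change in *Tug1*-/- testes (y axis, log2 scale, bars for the quartiles over genes) for each chromosome (x axis), with the median of all genes as a black line. Bottom, genes past 1.5 times in either direction (y axis), with 22 lower genes on chromosome 11 and 7 higher and 0 lower on chromosome X.

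Chromosome 11, which carries *Tug1*, held 22 of the 113 lower genes, *Tug1* among them. Within 1 Mb of *Tug1* 35 genes were measured, of which 5 were higher (*Rnf185*, *8430429K09Rik*, *Selm*, *Smtn* and *Gm11946*, the last sharing its span with *Smtn*) and 0 lower. Of all measured genes 1.14% were higher. The lower genes lay elsewhere on the chromosome. Over 1 Mb from *Tug1*, 21 of 1227 measured genes were lower (1.71%), against 0.656% of the 13872 genes of the other chromosomes and the 0.747% of all genes, and 12 were higher (0.978%).

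Beyond 80 Mb, a bound set after the values had been seen, 19 of 590 were lower (3.22%). The remaining pair were *Gm12089* and *Guk1*, guanylate kinase (chr11:59183875-59192212), which had 113 FPKM in wild-type testes and 66.1 FPKM in the knockout. *Cisd3*, an iron-sulfur protein of mitochondria (chr11:97685826-97688621), had 25.6 and 10.5 FPKM. *Ptchd3*, a patched-related protein of male germ cells (chr11:121830247-121843423), had 60.8 and 31.1 FPKM. *Rdm1*, a protein with a RAD52 motif (chr11:101627195-101636100), had 9.17 and 3.51 FPKM, and the noncoding *Gm11635*, which lies before it, had 45.7 and 25.8 FPKM. The noncoding *1700109G15Rik* and *Gm11749* had 16.2 and 7.13 FPKM and 14.4 and 5.30 FPKM. *Lpo*, lactoperoxidase, had 4.54 and 0.220 FPKM, and the noncoding *AA465934* had 8.17 and 0.794 FPKM. Both were named after their values had been seen.

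In the other tissues these genes lay mostly near their wild-type level. Of the 21, 10 were measured in at least 1 other tissue, giving 40 values, of which 25 had the same sign as in testes and 2 were past 1.5 times, neither of them lower. *Guk1* had changes between -0.16 (prostate) and 0.02 (liver) in the other 6 tissues. *Cisd3* had changes between -0.33 (liver) and 0.18 (eyes).

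The largest changes among genes of at least 5 FPKM, on the log2 scale and with *Tug1*, *lacZ* and genes within 1 Mb of *Tug1* left out, lay outside the germ cell lists. *Rhod* (chr19:4425459-4477447, a span shared with *Syt12*) was at 35.3 FPKM in wild-type testes and 4.39 FPKM without *Tug1*, the lowest change, -2.98, of a gene at that level other than *Tug1*. In the other tissues *Rhod* was measured in 6, with changes between -0.56 (spleen) and 1.02 (eyes). *Vav2* had 19.7 and 11.2 FPKM. The other lower genes of that rule outside chromosome 11 were *Ighv1-73*, an immunoglobulin segment, with 8.99 and 2.71 FPKM, the pseudogene *Dcdc5* with 27.6 and 14.6 FPKM, and *2010109A12Rik* with 23.1 and 13.2 FPKM. Of the 12 genes with the lowest changes at that level, *Tug1* and its neighbors left out, 7 lay on chromosome 11.

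The 12 genes with the highest changes at that level ran from 4.86 times to 1.99 times their wild-type value. *Gm8730*, with 11.02 FPKM in wild-type testes and 54.0 FPKM in the knockout, and *Gm7853*, *4930401O12Rik*, *Gm15564* and *Gm10217* led them, with knockout values between 16.5 and 54.0 FPKM. *Gm15564* lies over *Kpna1*, which had 23.0 and 19.4 FPKM, and their reads cannot be told apart by strand. Where measured in other tissues, *Gm15564* had changes between -5.57 (prostate, with 195 and 4.01 FPKM) and -0.35 (spleen). *Gm10217* had changes between -1.06 (eyes) and 0.37 (heart), and *Gm8730* between -0.17 (prostate) and 0.14 (spleen). Of the 24 genes chosen by largest change upward or downward, 18 were measured in another tissue, giving 83 values. Of these values 52 had the same sign as in testes, and 11 were past the fold, 6 of them with that sign. *Mpeg1*, a pore-forming protein of macrophages, had 4.02 and 9.36 FPKM, and *Ccl8*, a chemokine for monocytes, had 5.88 and 12.1 FPKM. *Lcn2* was among the 12. *Aplp1*, related to the amyloid precursor, had 6.06 and 13.7 FPKM, *Ddr1*, a receptor for collagen, had 5.97 FPKM in wild-type testes and 1.99 times that level in the knockout, *Emb*, a partner of lactate transporters, had 4.01 and 8.29 FPKM, and *Cmtm3* had 3.82 and 7.96 FPKM.

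Below 5 FPKM larger ratios were seen. *Timp1*, an inhibitor of metalloproteinases, had 0.725 FPKM in wild-type against 6.83 FPKM in knockout testes, a change of 3.07, and *Tnfrsf12a*, the receptor of the cytokine TWEAK, had 0.881 and 4.44 FPKM. Both were named after their values had been seen. *Timp1* is listed with *Araf* in 1 span, and *Araf* had 9.10 and 8.88 FPKM. In the other 5 tissues where it was measured *Timp1* had changes between -0.26 (prostate) and 0.06 (eyes). *Yjefn3*, also named after its values had been seen, had 9.07 and 0.561 FPKM and shares a span with *Ndufa13* and with *Tssk6*, a spermatid kinase at 267 and 224 FPKM.

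Some of the groups that were higher in testes were higher elsewhere too, by each tissue's own comparison. The acute phase list lay above all genes at the median by 0.28 in testes and by 0.08 in MEFs, 0.27 in spleen, 0.41 in heart, 0.42 in eyes, 0.50 in prostate and 0.56 in liver. *Lcn2* had a change of 1.14 in testes, and of 1.41 in spleen, 0.91 in prostate, 0.90 in liver, 0.79 in eyes and 0.44 in heart. The macrophage list lay above all genes by 0.32 in testes, 0.49 in eyes, 0.52 in prostate and 0.53 in liver, by 0.09 in heart, and below them by 0.01 in spleen and 0.44 in MEFs. The Sertoli list, whose genes are in part used by other tissues, lay 0.24 above all genes in testes and between -0.10 (MEFs and spleen) and 0.11 (prostate) elsewhere. The Leydig list lay 0.27 above all genes in testes and between -0.05 (liver and MEFs) and 0.17 (prostate) elsewhere, with 0.10 in eyes. In prostate 5 of its 22 measured members were higher past the fold, where 289 of all 12157 measured genes were. In testes 4 of its 33 measured members were, where 173 of all 15136 were. The complement list lay 0.32 above all genes in testes, 0.51 in prostate, 0.28 in eyes and 0.08 in liver. Its values were -0.05 in heart, -0.14 in spleen and -0.48 in MEFs. No test of these differences between tissues could be made from 1 value per genotype.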

How the data were processed

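The description below rests on 1 deposited table that sets wild-type against knockout in each tissue. In it the authors give 1 FPKM value per gene and genotype (fragments scaled by transcript length and library size), with the replicates combined. The header does not name the unit, which follows from the layout of the table. The submitters' processing notes name CASAVA 1.8.2, TopHat2, Cuffdiff and the build mm10. The paper's methods give a different route, through counts of reads. Columns with the authors' fold changes, test statistics, *p* and *q* values and their significance mark were not used, and brain was not analysed here. The table holds no values per mouse, so neither the depth of the libraries nor the spread between mice is known, and no test was made.

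A gene was measured where its status was OK and the mean of the wild-type and knockout values was at least 1 FPKM. The change was log2((KO + 0.1)/(WT + 0.1)), and genes past a fold of 1.5 were counted. The genes named are those of 24 lists past that fold or among the 3 of highest mean in a list, 5 markers, and, at a mean of at least 5 FPKM, the 12 genes with the largest change upward and the 12 with the largest change downward, leaving out *Tug1*, *lacZ* and genes within 1 Mb of *Tug1*. Others were chosen after their values had been seen and are marked so. The lists and the comparisons were chosen with earlier results of these data known. Motifs were searched in RefSeq promoter windows of build GRCm38.p6. The steps were tested on simulated data. The scripts ran on Python 3.11.15 with pandas 2.3.3, numpy 2.4.6, matplotlib 3.10.9 and scipy 1.17.1. The alternatives were pseudocounts of 1 and 0.01, other filters on the mean, a fold of 2, other scalings, any status and, added after the values had been seen, protein-coding genes only and chromosome 11 left out.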

Additional observations from a re-analysis of the deposited data

How the results depend on the processing

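The counts of higher and lower genes depended on the fold and on the treatment of low values. They were 173 and 113 as reported, 80 and 53 with a pseudocount of 1, 453 and 333 without the filter on the mean, 51 and 26 at a mean of at least 5 FPKM, and 40 and 27 at a fold of 2. Dividing by total FPKM gave 290 higher genes, and with protein-coding genes only 68 were lower. The median of testis-restricted genes was -0.123 with a pseudocount of 1, -0.070 when centred and -0.031 with total scaling, so its size depends on the scaling. Relative to the other genes it was -0.090 as reported, -0.097 without the filter, -0.073 at a mean of at least 5 FPKM and -0.102 with a margin of 3 times. Relative to all genes, the round spermatid list was at -0.057 and the flagellum list at -0.064 at a mean of at least 5 FPKM. The median of all genes was -0.060 as reported and -0.077 under that filter, so the reference of these values moved. List medians relative to all genes are nearly fixed by construction under centring and total scaling. Under the other settings the sign turned for 3 lists, to -0.02 for cytoplasm removal without the filter and, at a mean of at least 5 FPKM, to 0.01 for the piRNA pathway and -0.07 for immediate early genes. No paired analysis was possible because the table holds no values per mouse, and leaving out a replicate was not run for the same reason. The depth of the libraries is unknown.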
